A study of Mus musculus with 20 samples.

Results

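Expression of HIF-1 and its hypoxia targets was described in murine bone marrow-derived dendritic cells (BMDC) for 10 genes, taken by name as HIF-1 and known hypoxia targets: Hif1a, Vegfa, Egln1, Egln3, Bnip3, Adm, P4ha1, Ndrg1, Ankrd37 and Ero1l. All 10 were among the 24421 genes of the count table, and 9 of them were among the 12465 genes with enough counts to be tested. The exception was Adm. RNA-seq was available for 20 libraries, with cells from 5 wild-type C57BL/6 mice (A to E) each divided over 4 groups. Bone marrow from each mouse was cultured for 8 days with GM-CSF at 40 ng/mL, so all groups share that background. The DMSO Ova group received 5% DMSO and ovalbumin (Ova), and the DMSO IC group received 5% DMSO and immune complexes (IC), which are ovalbumin bound by anti-ovalbumin IgG and which cross-link Fcγ receptors. The iBET Ova and iBET IC groups received the same stimuli with I-BET151 at 3.3 µM, a small molecule that keeps BET bromodomain proteins off acetylated histones. Exposure was for 4 hours in all groups. The labels place the drug and the stimulus at the same time and the methods place the drug earlier, and no solvent is named for the iBET groups. No group is labelled as having been kept at low oxygen, and the oxygen level of the cultures is not given in the sources used here.

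HIF-1 is a transcription factor made of an α subunit, encoded by Hif1a, and the constitutive partner ARNT. With oxygen present, prolyl hydroxylases (PHD proteins, encoded by the Egln genes) mark the α subunit, the von Hippel-Lindau protein binds the mark, and the subunit is degraded, so that control is largely exerted on the protein and is not read by RNA. Without oxygen the subunit accumulates and raises genes for glycolysis, vascular growth, collagen modification and mitophagy, and Egln3 is both a regulator and a target. In myeloid cells HIF-1 is also engaged by inflammatory stimuli at normal oxygen.

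Libraries held between 16447491 and 29245150 gene counts, with a median of 21764663. Levels are given in CPM, a gene's counts in every 1000000 counts of its library after scaling of the library total by its TMM factor, and fold changes come from edgeR's quasi-likelihood test with p adjusted over all genes tested by the Benjamini-Hochberg method. The summed level of 10 dendritic cell markers lay between 4630 and 9703 CPM in all libraries, and 8 macrophage markers summed to 1372 to 2091 CPM in the DMSO groups and to 920 to 1533 CPM in the iBET groups. Of the macrophage markers 5 were lower with iBET in Ova and 3 in IC, at an adjusted p under 0.05. Of the dendritic cell markers 4 were lower with iBET in each stimulus. Over all genes tested, 28.9% were lower with iBET in Ova and 29% in IC at this cut. Neutrophil markers summed to 12.1 to 51.3 CPM, erythroid markers to at most 15.6 CPM, and B and T cell markers to at most 0.726 and 0.143 CPM. The part of these shifts in the values reported here was not tested. In bulk RNA, fewer cells of a type and less RNA per cell cannot be told apart.

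HIF dimers bind the letters ACGTG or GCGTG, and the 250 bases before the transcription start were searched for both on either strand. Windows from RefSeq (GRCm38.p6) were found for 9 of the 10 genes, the exception being Ndrg1. Sequences are printed for the 4 genes that rose with iBET in Ova and for Ankrd37, which fell, so that genes with opposite responses can be compared by eye. Capitals mark each match, in its own or its reverse-complement letters.
Bnip3 (chr7:138909507-138909756, minus strand): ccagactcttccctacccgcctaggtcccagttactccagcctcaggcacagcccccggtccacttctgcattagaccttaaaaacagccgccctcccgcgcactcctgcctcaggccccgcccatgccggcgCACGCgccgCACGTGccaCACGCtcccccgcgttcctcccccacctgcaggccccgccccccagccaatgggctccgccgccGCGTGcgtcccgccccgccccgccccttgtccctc
Ero1l (chr14:45318573-45318822, minus strand): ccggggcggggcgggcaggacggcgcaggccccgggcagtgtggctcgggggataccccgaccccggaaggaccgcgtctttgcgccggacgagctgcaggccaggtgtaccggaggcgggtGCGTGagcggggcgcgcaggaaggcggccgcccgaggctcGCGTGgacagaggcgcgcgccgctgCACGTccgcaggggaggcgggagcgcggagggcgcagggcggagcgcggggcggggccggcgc
P4ha1 (chr10:59323046-59323295, plus strand): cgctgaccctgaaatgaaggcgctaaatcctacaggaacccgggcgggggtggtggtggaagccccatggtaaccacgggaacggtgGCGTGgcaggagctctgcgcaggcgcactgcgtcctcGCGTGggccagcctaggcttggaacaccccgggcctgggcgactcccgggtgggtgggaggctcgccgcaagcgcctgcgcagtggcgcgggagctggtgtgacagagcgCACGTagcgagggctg
Egln3 (chr12:54203875-54204124, minus strand): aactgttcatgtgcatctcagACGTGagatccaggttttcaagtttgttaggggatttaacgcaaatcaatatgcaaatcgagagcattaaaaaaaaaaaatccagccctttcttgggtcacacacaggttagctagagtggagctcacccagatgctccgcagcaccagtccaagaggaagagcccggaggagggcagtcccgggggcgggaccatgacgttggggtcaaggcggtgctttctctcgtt
Ankrd37 (chr8:45999851-46000100, minus strand): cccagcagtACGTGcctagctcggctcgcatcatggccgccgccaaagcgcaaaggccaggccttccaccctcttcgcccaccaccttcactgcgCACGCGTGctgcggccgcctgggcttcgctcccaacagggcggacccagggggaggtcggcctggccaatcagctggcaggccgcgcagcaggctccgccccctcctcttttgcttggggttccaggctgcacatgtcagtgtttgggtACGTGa
The Bnip3 window held 5 matches, of which the 2 to ACGTG are both strands of 1 CACGTG palindrome. Ero1l and P4ha1 held 3 matches each and Egln3 held 1. Ankrd37 held 4, of which 2 overlap. Egln1 and Adm had 2 each and Hif1a had 3, and of the 2 Vegfa start sites listed the upstream window had 0 and the downstream window had 2. The downstream Vegfa window and the windows of Hif1a and Ankrd37 lay wholly inside the annotated span of their genes. By comparison, 38.6% of 32851 mouse promoter windows of this length held at least 1 of these motifs, with ACGTG in 16.6%, GCGTG in 28.2% and CACGTG in 6.02%. GC content of the members' windows ranged from 50.8% for Egln3 to 86% for Egln1. The genes that rose with iBET and the gene that fell all held matches.

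The 10 genes covered a wide range of levels. Counts were divided by the length of all annotated exons of a gene to compare genes (CPM per kb, GENCODE, GRCm38). In the DMSO Ova group Hif1a was highest at 53.7 ± 4.54 CPM per kb (SD, n = 5), above Ero1l at 37.6 ± 9.17 in 5 of 5 libraries. P4ha1, Vegfa, Bnip3 and Egln1 followed between 20.0 and 13.9 CPM per kb, and among these each step in the order overlapped in range and was crossed in at least 1 mouse. Ndrg1 at 9.10, Egln3 at 2.74 and Ankrd37 at 2.03 CPM per kb were lower, and Adm was lowest at 0.181. With IC in DMSO the order was the same. With iBET and Ova, Ero1l came first, at 66.3 ± 19.5 CPM per kb against 52.5 ± 5.06 for Hif1a. The ratio of Ero1l to Hif1a per length was 0.693 ± 0.115 in DMSO Ova, 0.618 ± 0.0964 in DMSO IC, 1.25 ± 0.253 in iBET Ova and 1.02 ± 0.156 in iBET IC. Ero1l exceeded Hif1a in 0 of 10 DMSO libraries, in 5 of 5 libraries with iBET and Ova and in 2 of 5 with iBET and IC, so that with iBET and IC the pair did not differ beyond their spread.

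**Figure D1:**
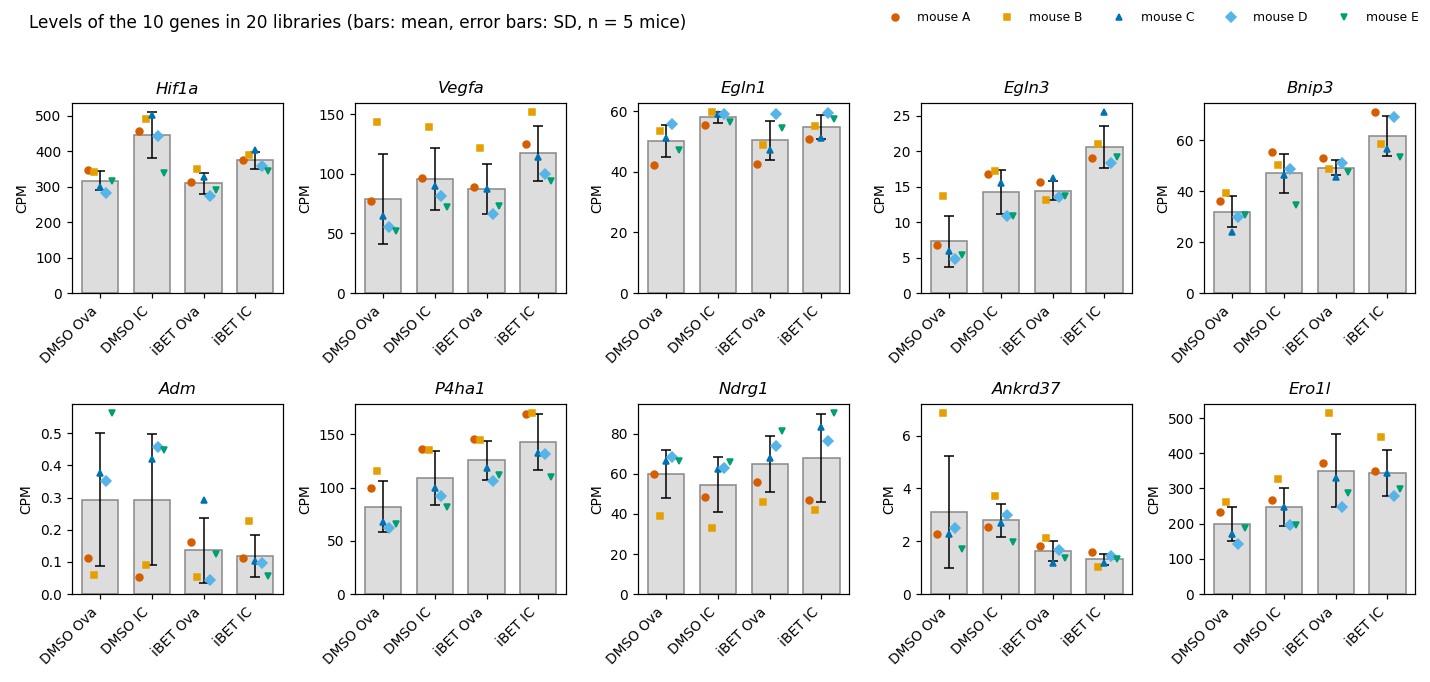
Levels of the 10 genes in CPM (vertical axes from 0, a separate scale per gene) in the 4 groups, with bars for the mean, error bars for the SD over 5 mice and 1 symbol per mouse. Bnip3 and Egln3 step up from DMSO Ova to iBET IC, Ero1l and P4ha1 are higher in the iBET groups, Ankrd37 is lower there, and mouse B stands high in DMSO Ova for Vegfa, Egln3 and Ankrd37.

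With iBET in the absence of IC, 4 of the 9 tested genes rose (Egln3, Bnip3, P4ha1 and Ero1l) and 1 fell (Ankrd37), at an adjusted p under 0.05 by edgeR. Over all genes tested, 27.7% rose and 28.9% fell in this comparison, so the share of members called, 5 of 9, was near the background of 56.6%. With iBET in IC, 3 rose (Egln3, Bnip3 and Ero1l) and 2 fell (Hif1a and Ankrd37), against 27.1% and 29% of all genes and 56.1% in either direction. The IC stimulus in DMSO raised 3 genes (Hif1a, Egln3 and Bnip3) and lowered 0, against 9.59% and 10.7% of all genes and 20.3% in either direction. In the presence of iBET the IC stimulus gave 0 calls, against 5.19% of all genes higher, 6.63% lower and 11.8% in either direction. At an unadjusted p under 0.05 there were 3 (Hif1a, Egln3 and Bnip3), near the 26.6% of all genes at that cut. DESeq2 called 1 member at an adjusted p under 0.05, Hif1a, and 1814 of all genes tested. The median log2 fold change of the 9 genes was 0.15, 0.31, 0.31 and 0.19 in these 4 comparisons, and that of all genes tested was -0.02 with IC in DMSO and closer to 0 in the others. The iBET comparisons and the IC comparisons share libraries with each other.

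The cells of all 4 groups came from the same mice, and with the mouse as a block in the fit the calls were more numerous. iBET in IC then gave 6 higher and 2 lower (32.6% and 35.4% of all genes in that fit), IC in DMSO gave 7 higher and 0 lower (18.3% and 19.8%), and IC in iBET gave 4 higher and 0 lower (14.2% and 14.7%). With iBET in Ova there were 5 higher and 1 lower (33.5% and 35.2%). Blocked p-values are given below for each gene whose call they changed. The count for iBET in IC also moved with single mice, being 3 without mouse A, 5 without B, 2 without C, 1 without D and 3 without E. The share of all genes called without each mouse is not given here.

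**Figure D2:**
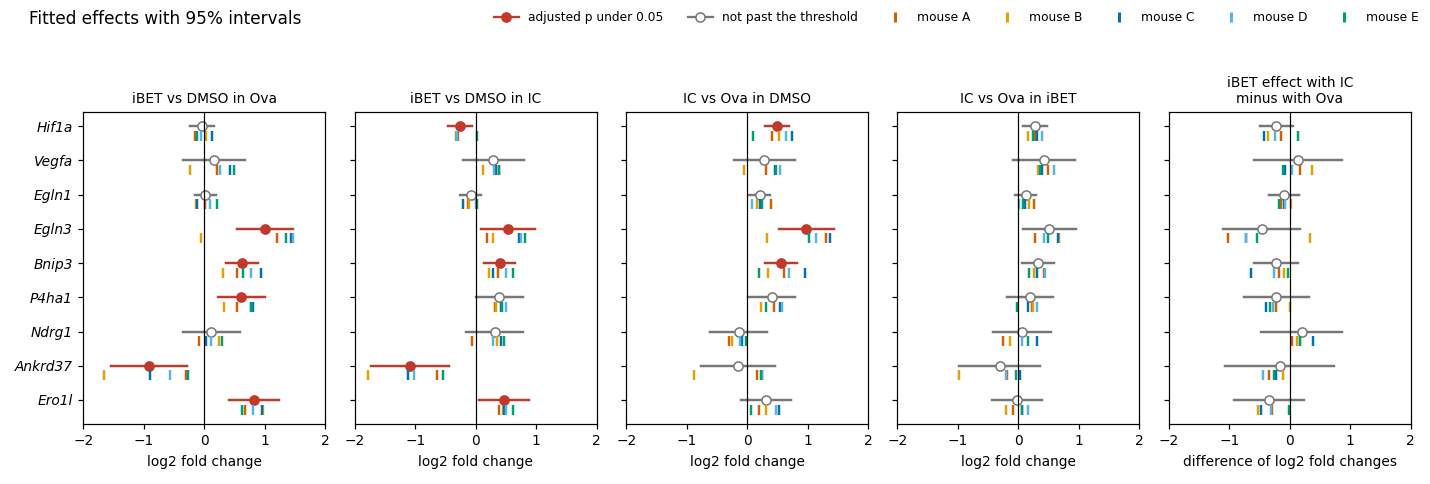
Fitted log2 fold changes (horizontal axes) of the 9 tested genes in the 4 comparisons and the difference between the iBET effects, with 95% intervals, filled red where the adjusted p is under 0.05, and coloured ticks for the log2 ratio in each mouse. With iBET, Bnip3, P4ha1 and Ero1l lie right of 0 and Ankrd37 lies left of 0 in all 5 mice in both stimuli, and with IC in DMSO all mice are right of 0 for Hif1a, Egln3 and Bnip3.

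Hif1a, the oxygen-regulated α subunit (chr12:73901375-73947530, plus strand), rose with IC in DMSO. It was called lower with iBET in IC and not in Ova. The difference between these iBET effects was itself not called (-0.22 on the log2 scale, 95% interval -0.50 to 0.06). In mice A to E its level was 346, 341, 300.0, 283 and 315 CPM in DMSO Ova. The DMSO IC libraries of the same mice gave 458, 491, 501, 443 and 338 CPM. The IC level was thus higher in 5 of 5 mice, with the smallest gap in mouse E, whose DMSO IC value lay within the range of the DMSO Ova group. The means were 317 ± 26.8 and 446 ± 64.8 CPM, a log2 fold change of 0.49 (SE 0.0946, adjusted p = 0.00120, edgeR), or 1.41-fold. With iBET the Ova libraries held 312, 348, 326, 272 and 290.0 CPM, and the range overlapped that of DMSO Ova almost fully (log2 fold change -0.03, 95% interval -0.23 to 0.16, adjusted p = 0.785). With iBET and IC the values were 375, 389, 404, 359 and 343 CPM. These were lower than DMSO IC in mice A to D and slightly higher in mouse E (log2 fold change -0.25, SE 0.0945, adjusted p = 0.0283). The last call was lost without mouse A, B, C or D (adjusted p = 0.0825, 0.113, 0.0983 and 0.0762). It was also lost without the filter on low counts (0.0560) and in mice C, D and E alone (0.203). The call held in 9 of 15 alternative settings, among them the blocked fit (0.00339). In iBET the means were 309.7 ± 29.8 CPM with Ova and 374 ± 24.03 CPM with IC, higher with IC in 5 of 5 mice (log2 fold change 0.27, adjusted p = 0.0670, and 0.00523 with the mouse as a block).

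Egln1 and Egln3 encode PHD2 and PHD3, the prolyl hydroxylases that mark HIF-α. Egln1 (chr8:124908587-124949324, minus strand) is regarded as the main oxygen sensor of most cells and had the smallest fitted changes with iBET of the 9 genes. Its means were 50.04 ± 5.32 CPM in DMSO Ova, 57.9 ± 1.89 in DMSO IC, 50.4 ± 6.45 in iBET Ova and 54.7 ± 3.82 in iBET IC. The iBET differences were 0.01 (95% interval -0.16 to 0.19) in Ova and -0.08 (-0.26 to 0.09) in IC on the log2 scale, the former of which turned negative with scaling by library size only and without mouse D or E. With IC in DMSO it was higher in 5 of 5 mice, by 0.21 (adjusted p = 0.0811, and 0.00704 with the mouse as a block).

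Egln3 (chr12:54178981-54203860, minus strand) is strongly induced by hypoxia in many cells and had the largest positive log2 fold change of the 9 genes in each of the 4 comparisons. In DMSO Ova it was at 6.76, 13.6, 5.93, 4.87 and 5.33 CPM in mice A to E, and in DMSO IC at 16.8, 17.2, 15.5, 10.9 and 10.9 CPM. Each mouse was higher with IC, and the ranges overlapped only through mouse B, whose DMSO Ova value was the highest of that group. The log2 fold change was 0.98 (SE 0.219, adjusted p = 0.00375), or 1.97-fold. In iBET Ova it was at 15.7, 13.1, 16.2, 13.6 and 13.7 CPM. Here 4 of 5 mice were more than their DMSO Ova level and mouse B was not, and the log2 fold change was 1.00 (SE 0.219, adjusted p = 0.000638). In iBET IC it was at 19.1, 21.02, 25.6, 18.3 and 19.2 CPM. Every one of these libraries was above every DMSO IC library (21.1% of all genes were higher without overlap) and above every iBET Ova library (4.57%). The difference from DMSO IC was 0.53 (SE 0.210, adjusted p = 0.0367), and the call was lost without mouse C, D or E (adjusted p = 0.118, 0.0908 and 0.114) and with scaling by library size only (0.0501). The difference from iBET Ova was 0.51 (adjusted p = 0.121, and 0.0231 with the mouse as a block).

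The log2 ratios of Egln3 for iBET in Ova were 1.20, -0.06, 1.43, 1.47 and 1.34 in mice A to E, and those for IC in DMSO were 1.30, 0.34, 1.38, 1.14 and 1.02. Mouse B lay below the other 4 mice in both. For iBET in IC they were 0.18, 0.28, 0.71, 0.75 and 0.81, where mice A and B were the lowest. Fitted on mice A and B alone the call was lost in all 3 comparisons (adjusted p = 0.129, 0.141 and 0.436). On mice C, D and E alone it held (6.42e-06, 0.000266 and 0.000728). These sets of mice hold 2 and 3 mice and were taken from earlier results of the same data, and the difference between them was not tested. Per length, Egln3 was 0.197 ± 0.0892 of Egln1 in DMSO Ova, 0.333 ± 0.0735 in DMSO IC, 0.394 ± 0.0807 in iBET Ova and 0.513 ± 0.0998 in iBET IC, and Egln3 was the lower of the pair in all 20 libraries.

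Bnip3 (chr7:138890836-138909519, minus strand), a mitochondrial outer membrane protein that drives mitophagy in hypoxia, rose with iBET and with IC. In DMSO Ova its level was 36.3, 39.2, 23.8, 30.0 and 30.5 CPM in mice A to E. In iBET Ova it was 52.9, 48.9, 45.7, 51.2 and 47.6 CPM, with no overlap between the groups (18.5% of all genes were higher without overlap). The means were 32.0 ± 6.00 and 49.2 ± 2.85 CPM, with a log2 fold change of 0.62 (SE 0.126, adjusted p = 0.000291). In DMSO IC the level was 55.2, 50.1, 46.3, 48.6 and 34.8 CPM, above DMSO Ova in 5 of 5 mice (log2 fold change 0.56, SE 0.126, adjusted p = 0.00409). In iBET IC it was 71.1, 58.3, 56.7, 69.01 and 53.4 CPM. These values overlapped with DMSO IC only in that mouse E with iBET lay below mouse A with DMSO, and the difference was 0.39 (SE 0.124, adjusted p = 0.0110, higher in 5 of 5 mice), but 0.36 and not past the threshold without mouse D (0.0576). All iBET IC libraries were above all iBET Ova libraries (4.57% of all genes were higher without overlap). The difference was 0.33 (adjusted p = 0.0960, and 0.0108 with the mouse as a block). Fitted on mice A and B alone the iBET difference in Ova was 0.43 (adjusted p = 0.0147), and on mice C, D and E alone it was 0.82 (0.000149), while the IC difference in DMSO was 0.47 with an adjusted p of 0.0577 in the first set and 0.64 (0.00427) in the second.

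Ero1l and P4ha1 act on proteins in the endoplasmic reticulum. Ero1l (chr14:45283087-45318771, minus strand), the oxidase that drives disulfide bond formation, was at 233, 263, 171, 142 and 187 CPM in DMSO Ova and at 371, 515, 331, 248 and 287 CPM in iBET Ova. The rise was present in 5 of 5 mice, and the ranges overlapped only in that mouse B with DMSO lay above mouse D with iBET. The log2 fold change was 0.82 (SE 0.199, adjusted p = 0.00164), or 1.76-fold. With IC the values were 268, 327, 248, 197 and 196 CPM in DMSO and 349, 446, 344, 278 and 299 CPM in iBET. The difference, 0.47 (SE 0.198, adjusted p = 0.0487), was again positive in 5 of 5 mice but was close to the threshold, which it missed without mouse A, C, D or E (adjusted p = 0.0931, 0.114, 0.0576 and 0.121) and with scaling by library size only (0.0694). With the mouse as a block its p was 2.96e-06. Between Ova and IC in DMSO the means of Ero1l were 198.9 ± 48.5 and 247 ± 54.8 CPM (log2 fold change 0.31, adjusted p = 0.291, and 0.000951 with the block), while in iBET the means were 350.5 ± 103 and 343 ± 64.7 CPM (log2 fold change -0.03, 95% interval -0.44 to 0.38), a difference whose sign turned without mouse B (0.04).

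P4ha1 (chr10:59323296-59373304, plus strand), a catalytic subunit of collagen prolyl 4-hydroxylase, had a similar layout. Its level in mice A to E was 99.8, 115, 68.0, 62.1 and 65.7 CPM in DMSO Ova and 146, 145, 119, 106 and 112 CPM in iBET Ova. All 5 mice were higher with iBET, with mice A and B above the others in both groups (log2 fold change 0.61, SE 0.184, adjusted p = 0.00799). In DMSO IC it was at 136, 135, 99.6, 92.3 and 81.7 CPM, and in iBET IC at 169, 170, 133, 131 and 110.2 CPM. The difference between these groups was 0.39 (SE 0.183) and positive in 5 of 5 mice, with an adjusted p of 0.0761 by groups alone and 3.09e-05 with the mouse as a block. IC against Ova in DMSO gave 0.41 (adjusted p = 0.127, and 9.7e-05 with the block), also in 5 of 5 mice.

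Vegfa (chr17:46016993-46032369, minus strand), the vascular endothelial growth factor and an archetypal HIF target, was at 77.0, 144, 65.0, 55.8 and 52.0 CPM in DMSO Ova. In DMSO IC it was at 96.2, 139, 90.0, 81.2 and 72.3 CPM, in iBET Ova at 89.0, 121, 87.3, 66.6 and 73.3 CPM, and in iBET IC at 125, 152, 114, 100.05 and 94.04 CPM. Mouse B was the highest in all groups, and the other 4 mice were higher with iBET than with DMSO and higher with IC than with Ova in every pair of libraries. No comparison passed the threshold by groups alone, with log2 fold changes of 0.15 for iBET in Ova, 0.29 for iBET in IC, 0.29 for IC in DMSO and 0.42 for IC in iBET (adjusted p = 0.610, 0.324, 0.456 and 0.293). With the mouse as a block all 4 did, with log2 fold changes of 0.22, 0.31, 0.34 and 0.43 (adjusted p = 0.0373, 0.00452, 0.00549 and 0.00132). Without mouse B the first 3 passed without a block as well, at 0.37, 0.37 and 0.45 (adjusted p = 0.0306, 0.0289 and 0.0350), and the fourth was 0.45 (0.0536). In mice A and B alone the iBET difference in Ova was -0.07.

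Ndrg1 (chr15:66929318-66969640, minus strand), a stress-responsive protein that limits growth, varied mainly with the mouse. Its means were 60.0 ± 12.1 CPM in DMSO Ova, 54.6 ± 13.8 in DMSO IC, 65.0 ± 14.1 in iBET Ova and 67.9 ± 22.1 in iBET IC. Mouse B was lowest in each group, at 39.2, 33.0, 46.1 and 42.0 CPM, and mice C, D and E were at 62.7 CPM or more in all groups. By groups alone no comparison passed the threshold (adjusted p between 0.254 and 0.907). With iBET in IC, 4 of 5 mice were higher by a fitted 0.31 (adjusted p = 0.254, and 0.00344 with the mouse as a block). With IC in DMSO, Ndrg1 was lower in 5 of 5 mice (log2 fold change -0.14, adjusted p = 0.728, and 0.144 with the block), and 18.8% of all genes were lower in all mice.

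Ankrd37 (chr8:45996902-46005707, minus strand), a small ankyrin repeat protein known as a direct HIF-1 target, was the only tested member that fell with iBET in both stimuli. It was low, with 20 to 116 counts per library. In DMSO Ova it was at 2.26, 6.88, 2.26, 2.52 and 1.69 CPM and in iBET Ova at 1.82, 2.11, 1.17, 1.67 and 1.38 CPM. All 5 mice fell, with mouse B falling most and the ranges overlapping (log2 fold change -0.92, SE 0.304, adjusted p = 0.0148). Without mouse B the change was -0.50 and still past the threshold (0.0304), and in mice A and B alone it was -1.18 with an adjusted p of 0.0743. In DMSO IC it was at 2.54, 3.72, 2.71, 3.00 and 1.99 CPM and in iBET IC at 1.59, 1.02, 1.19, 1.43 and 1.33 CPM. These groups did not overlap (21.6% of all genes were lower without overlap), with a log2 fold change of -1.08 (SE 0.309, adjusted p = 0.00557, and 0.0728 in mice A and B alone). IC had no detectable effect in either treatment, at -0.14 in DMSO (95% interval -0.75 to 0.47) and -0.31 in iBET (-0.98 to 0.36), and the sign of the former was set by mouse B, since it was 0.23 without that mouse. Exons of Ankrd37 share 349 bases with Lrp2bp and 57 bases with Ufsp2, both on the other strand and both in the count table, and the strand setting of the counting is not given in the sources used here. Lrp2bp was nearly silent, with group means of at most 0.0701 CPM. Ufsp2 was at 35.0 CPM in DMSO Ova and 29.5 CPM in iBET Ova (log2 fold change -0.25, adjusted p = 0.0650) and changed by -0.16 with iBET in IC (adjusted p = 0.239).

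Adm (chr7:110627661-110629820, plus strand), the precursor of the vasodilator peptide adrenomedullin, was detected with 1 to 11 counts per library and was too low for the test. The 5 libraries of a group held 33 counts in DMSO Ova, 34 in DMSO IC, 14 in iBET Ova and 14 in iBET IC. In mice C, D and E the DMSO libraries held 8 to 11 counts each, and no other library had more than 6. Without the filter on low counts the iBET differences were -1.09 in Ova and -1.23 in IC (adjusted p = 0.174 and 0.120, edgeR), which at this depth is not a detectable change.

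Whether iBET acted differently with IC than with Ova was tested as an interaction. No tested member was called (0 of 9, against 0.0401% of all genes), none had an unadjusted p under 0.05 by edgeR, DESeq2 or limma, and with the mouse as a block 4 did (Hif1a, Egln3, P4ha1 and Ero1l, against 11.2% of all genes) and with surrogate variables 3 did (P4ha1, Ero1l and Bnip3, against 10.4%), also with 0 calls after adjustment (0.818% of all genes in the blocked fit). The difference of log2 fold changes was negative for 7 of 9 genes, among them Egln3 (-0.47, 95% interval -1.10 to 0.17), Ero1l (-0.34, -0.93 to 0.24), Bnip3 (-0.23, -0.60 to 0.14) and Hif1a (-0.22, -0.50 to 0.06). Ero1l and Bnip3 had this sign in 5 of 5 mice, as did Ankrd37, and 5.54% of all genes did. These intervals come from the fit by groups alone and include 0 for all 9 genes. They reach beyond -0.5 for Egln3, P4ha1, Bnip3, Vegfa, Ankrd37 and Ero1l, so that fit could not tell a difference of that size from 0. With the mouse as a block the SEs of these genes were smaller, from 0.0921 for Ero1l (0.280 by groups alone) to 0.346 for Ankrd37 (0.431).

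The spread of each gene over the 20 libraries was divided into shares for iBET, stimulus, interaction and mouse, with the log2 CPM of all libraries. Stimulus took 57.6% for Hif1a and 32.6% for Egln1, against 6.05% for the median gene. iBET took 52.7% for Ankrd37 and 50.03% for Ero1l, against a median of 40.2%, but 7.64% for Hif1a and 1.52% for Egln1. Egln3 had 38.2% for iBET and 34.3% for stimulus, and Bnip3 had 43.5% and 30.9%. Mouse took 82.3% for Ndrg1, 62.4% for Vegfa, 41.4% for Egln1, 41.0% for P4ha1 and 40.4% for Ero1l, each above the median of 17.5%. The mouse coincided with the replicate set, so animal, culture and replicate set cannot be told apart within this share. The factor with the largest share was thus stimulus for Hif1a, the mouse for Egln1, Vegfa, Ndrg1 and P4ha1, and iBET for Egln3, Bnip3, Ankrd37 and Ero1l. For P4ha1 the iBET share, at 39.6%, was close to that of the mouse.

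**Figure D3:**
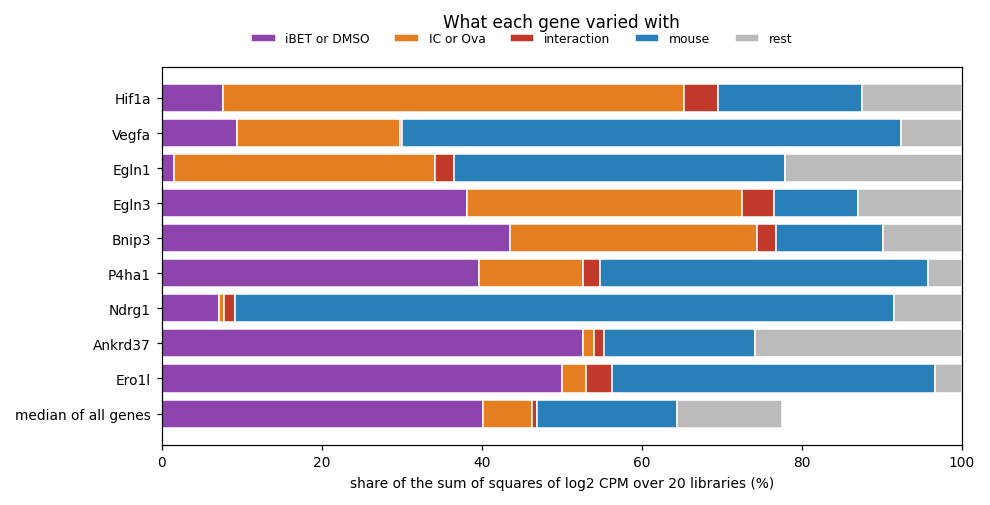
Shares of the sum of squares of log2 CPM over 20 libraries (horizontal axis, %) for each tested gene, with colours for iBET, stimulus, their interaction, the mouse and the rest, and with the median share of each kind over all genes tested in the lowest bar, which need not add to 100. Hif1a is led by stimulus at 57.6%, Ndrg1 and Vegfa by the mouse at 82.3% and 62.4%, and Ankrd37 and Ero1l by iBET at 52.7% and 50.03%.

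The oxygen-sensing machinery was described with a list of 17 genes that holds Hif1a, Egln1 and Egln3 and of which 16 were tested. With iBET 6 rose and 2 fell in Ova, and 5 rose and 3 fell in IC, against the background shares given above, and the median log2 fold change was 0.02 and 0.03. Among the genes for HIF subunits, Epas1, which encodes HIF-2α, rose from 1.92 ± 0.773 to 5.23 ± 1.48 CPM with iBET in Ova (log2 fold change 1.45, adjusted p = 0.00128) and from 1.54 ± 0.719 to 4.72 ± 2.24 CPM in IC (1.61, adjusted p = 0.000632). Arnt, the shared partner of the α subunits, rose from 50.2 ± 5.91 to 79.8 ± 8.80 CPM in Ova and from 53.3 ± 4.68 to 87.7 ± 8.95 CPM in IC (0.67 and 0.72, adjusted p = 6.70e-06 and 2.65e-06). Its paralog Arnt2, at 2.91 ± 0.299 CPM in DMSO Ova, fell by 1.54 in Ova and by 1.16 in IC on the log2 scale (adjusted p = 6.41e-06 and 0.000131). Hif3a was at most 0.187 CPM in any library and was not tested. So with iBET the RNA of HIF-2α and of the common partner rose while that of Hif1a did not.

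Of the genes that restrain HIF, Hif1an, the asparaginyl hydroxylase FIH that blocks co-activator binding, rose from 40.1 ± 7.26 to 72.5 ± 6.82 CPM with iBET in Ova (log2 fold change 0.85, adjusted p = 1.70e-06) and by 0.88 in IC (1.08e-06). Cited2, which competes with HIF-α for p300 and CBP and is itself a HIF target, rose from 21.9 ± 2.87 to 45.7 ± 5.63 CPM in Ova (1.06, adjusted p = 4.53e-08) and by 0.84 in IC (1.08e-06). Both rose in 5 of 5 mice. In the ubiquitin ligase that removes HIF-α, Cul2 fell by 0.25 in Ova and by 0.42 in IC (adjusted p = 0.00529 and 4.31e-05), and Rbx1 rose by 0.24 in Ova (adjusted p = 0.00466). Vhl, Tceb1, the third prolyl hydroxylase gene Egln2 and the co-activator genes Ep300 and Crebbp did not pass the test with iBET in either stimulus, and Tceb2 did so only with the mouse as a block (0.17 and 0.20, adjusted p = 0.00838 and 0.00273).

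With IC in DMSO, Rbx1 rose from 39.5 ± 3.00 to 51.0 ± 3.43 CPM (log2 fold change 0.37, adjusted p = 0.000808), beside Hif1a and Egln3, and no gene of the list fell. These 3 of 16 compare with 9.59% of all genes higher. With the block the count was 6 higher and 1 lower (18.3% and 19.8% of all genes), the latter being Vhl (-0.21, adjusted p = 0.0304). In iBET 0 of 16 passed by groups alone (11.8% of all genes). DESeq2 called 3, and 1814 of the 12465 genes tested. The block gave 4 higher and 1 lower (14.2% and 14.7% of all genes).

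**Figure D4:**
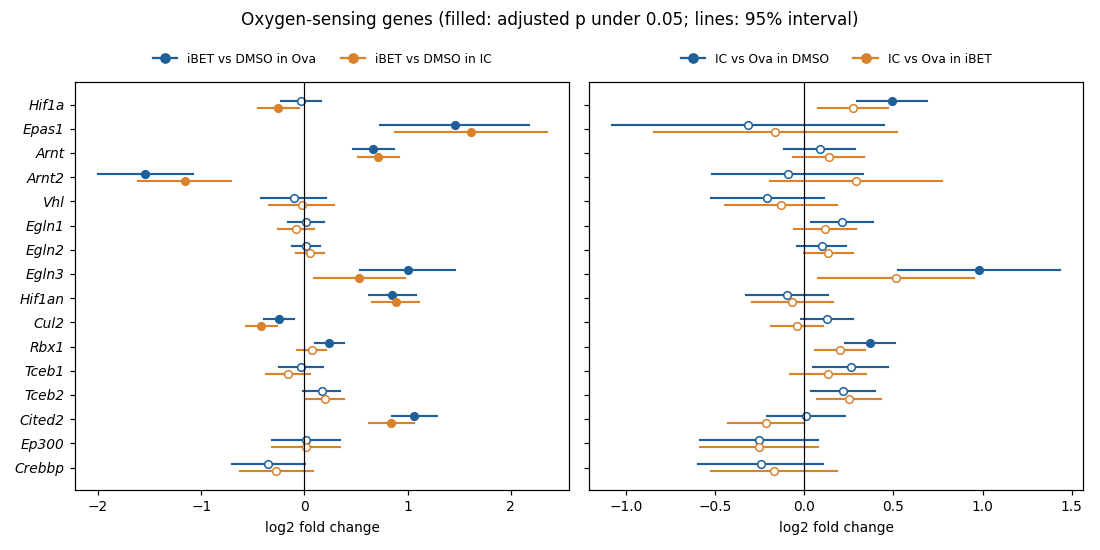
Log2 fold changes (horizontal axes) with 95% intervals of 16 oxygen-sensing genes for iBET against DMSO (left, blue in Ova and orange in IC) and for IC against Ova (right, blue in DMSO and orange in iBET), filled where the adjusted p is under 0.05. Epas1, Arnt, Hif1an and Cited2 lie right of 0 and Arnt2 and Cul2 left of 0 with iBET in both stimuli, and with IC in DMSO the filled points are Hif1a, Egln3 and Rbx1.

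Beyond the 10 genes, 27 of 30 other HIF targets and 18 of 18 glycolytic HIF targets were tested. Of the other targets 10 rose and 6 fell with iBET in each stimulus, a share near the 56.6% and 56.1% of all genes called in Ova and IC. With IC in DMSO 8 rose and 0 fell, against 9.59% and 10.7% of all genes (14 and 4 with the mouse as a block, against 18.3% and 19.8%). In iBET, IC gave 6 higher and 1 lower, against 5.19% and 6.63% (12 and 3 with the block, against 14.2% and 14.7%). P4ha2, a paralog of P4ha1, rose with iBET from 0.459 ± 0.200 to 1.39 ± 0.323 CPM in Ova (log2 fold change 1.58, adjusted p = 4.46e-05) and by 0.79 in IC (0.00841). Ddit4, an inhibitor of mTORC1, rose from 4.55 ± 1.599 to 8.97 ± 1.14 CPM (0.98, adjusted p = 6.23e-05) and by 0.98 in IC (5.38e-05). The secreted factors Angptl4 and Pdgfb had the largest falls with iBET. Angptl4 went from 5.08 ± 1.75 to 0.900 ± 0.242 CPM in Ova (-2.48, adjusted p = 1.78e-07) and Pdgfb from 40.7 ± 10.4 to 8.11 ± 1.90 CPM (-2.33, adjusted p = 3.42e-08), with changes of -2.34 and -2.60 in IC.

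Of the glycolytic targets, IC in DMSO raised 11 of 18 and lowered 1, against 9.59% and 10.7% of all genes, with a median log2 fold change of 0.28. IC in iBET raised 9 and lowered 0, against 5.19% and 6.63%, with a median of 0.24. iBET raised 5 and lowered 3 in each stimulus, a smaller share than the 56.6% and 56.1% of all genes called in Ova and IC. The largest rises called in both stimuli were those of Pfkl and Pdk1. Pfkl, the liver-type phosphofructokinase, went from 76.7 ± 16.4 to 169.5 ± 6.22 CPM in Ova (1.14, adjusted p = 3.73e-08). Pdk1, a kinase of pyruvate dehydrogenase, rose by 0.45 in Ova (adjusted p = 0.000710). The largest falls were those of the bifunctional regulators Pfkfb3 (-1.20 in Ova and -0.69 in IC, adjusted p = 0.000629 and 0.0292) and Pfkfb4 (-0.72 and -0.46, adjusted p = 4.05e-07 and 0.000104). Scaling by library size only lowered the median of all genes by 0.11 on the log2 scale in both IC comparisons and the share of calls that were higher from 47.3% to 18.3% in DMSO and from 43.9% to 13.4% in iBET. Of the 12465 genes tested, IC called 3175 in DMSO and 2343 in iBET under that scaling, against 2531 and 1474 in the reported fit. The glycolytic targets called were then 9 higher and 1 lower in DMSO and 2 higher and 1 lower in iBET. The other targets called were 5 higher and 3 lower in DMSO and 3 higher and 2 lower in iBET. Hif1a, Egln3 and Bnip3 stayed called with IC in DMSO.

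Over the 20 libraries, the genes whose log2 CPM followed Hif1a most closely among all tested were Pi4k2b (Pearson r = 0.939), Katnbl1 (0.922) and Exoc5 (0.918). For the other members the nearest gene was App for Vegfa (r = 0.871), Anxa11 for Egln1 (0.823), Zfp503 for Egln3 (0.934), Prkci for Bnip3 (0.950), Lman1 for P4ha1 (0.954), Marco for Ndrg1 (0.913), Tmem86a for Ankrd37 (0.900) and Vmp1 for Ero1l (0.960). These values describe 20 libraries that share 5 mice and 4 groups, so the points are not independent. No member was the nearest gene of another.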

How the data were processed

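RNA-seq of murine BMDC was analysed in 20 libraries (4 groups, 5 mice). The labels say that cells were sorted into lysis buffer, and the methods that cells in culture were lysed. Libraries were made with a SMARTer pico input kit. The authors trimmed the reads, aligned them to mm10 with HISAT2 and counted them per gene with featureCounts. The annotation, the strand setting and tool versions are not given in the sources used here. The authors deposited whole-number counts per gene, and a second deposited table of signal values that holds the same counts divided by 1 factor per library. The second table was used only in an alternative, with limma on log2 values and a pseudocount of 1.

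Low genes were removed by filterByExpr and libraries scaled by TMM. The model of edgeR 4.0.16 (R 4.3.3, quasi-likelihood) held only the 4 groups and did not use the pairing by mouse. The study's design formula is not stated, and the mouse as a block was fitted as an alternative. P-values were adjusted over 12465 genes, with a threshold of 0.05. CPM values use library totals scaled by TMM, and log2 CPM a prior count of 2. The script was tested on simulated data. The mouse numbers pair the libraries, as the labels give the mouse. Deviations from the group means correlated between libraries of the same mouse (mean 0.524, lowest 0.307 of 30 pairs). Between mice the mean was -0.156, but centring on the group means pushes this value negative, so nothing is drawn from it. Libraries of a group differed by more than counting error (chi-square per degree of freedom at least 12.6 in 40 pairs), so errors are SDs between mice. The median depth was 21764663 counts per library.

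Alternatives were the mouse as a replicate block, DESeq2 1.42.0 (plain and blocked by mouse), median-of-ratios size factors, library size only, no filter, surrogate variables (sva 3.50.0), limma 3.58.1, each mouse left out, mice A and B only and mice C, D and E only. The genes, lists and alternatives were chosen with earlier results of these data known, and p-values are not adjusted over a list alone. Genes named beyond the 10 are the oxygen-sensing list, the 2 largest rises and 2 largest falls of each other list with iBET in Ova among genes past the threshold in both stimuli and with 1 direction in 5 of 5 mice, and, for each gene tested, the gene with the highest Pearson r (3 for Hif1a). Positions and exon lengths come from GENCODE M21 (GRCm38).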

Additional observations from a re-analysis of the deposited data

Results flagged for a closer look

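In the DMSO Ova group mouse B stood apart from the other 4 mice for 3 of the 10 genes, by the gap to its nearest neighbour relative to the range of the group. Vegfa was at 143.7 CPM in mouse B, and the next highest library was at 77.0 CPM. Egln3 was at 13.6 CPM in mouse B and at most 6.76 CPM in the others. Ankrd37 was at 6.88 CPM in mouse B and at most 2.52 CPM in the others. Over 10 genes and 4 groups, 40 sets of 5 libraries were examined, and chance alone marks about 1 in 20. Without mouse B the iBET difference in Ova was 1.396 for Egln3, 0.37 for Vegfa and -0.50 for Ankrd37 on the log2 scale. No member had a called difference between the iBET effects in IC and in Ova.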

How the results depend on the processing

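The count of genes called with iBET in Ova was 5, and 3 in mice A and B only and 7 in mice C, D and E only (5 to 6 with each mouse left out). With iBET in IC it was 5, and 8 with the replicate block by edgeR and by DESeq2, 3 with library size only, 3 in mice A and B only, 7 in mice C, D and E only and 1 to 5 with each mouse left out. With IC in DMSO it was 3, and 7 with the replicate block by edgeR and by DESeq2, 7 with surrogate variables, 1 in mice A and B only, 6 in mice C, D and E only and 3 to 4 with each mouse left out. With IC in iBET it was 0, and 4 with the replicate block by edgeR, 5 by DESeq2, 1 with DESeq2 without the block, 5 with surrogate variables and 2 in mice C, D and E only (0 to 0 with each mouse left out). The interaction had 0 calls in all settings. The calls that the block added are given beside the genes, and it removed none. The number called among all 12465 genes tested moved as well. For iBET in IC it was 6990, and 8473 with the block and 7006 with library size only. IC in DMSO called 2531, and 4755 with the block and 4062 with surrogate variables. IC in iBET called 1474, and 3601 with the block, 3102 with surrogate variables and 1814 with DESeq2 alone. Totals for the sets of mice and for blocked DESeq2 are not given here. Sets of mice hold fewer libraries, and in the other settings the cause was not tested.

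Among the values of single genes over all settings, 583 kept their direction and their side of the threshold, 51 passed it, 23 no longer did and 18 changed sign. The sign changes (log2) were those of Hif1a for iBET in Ova in mice C, D and E (0.032), of Vegfa for iBET in Ova in mice A and B (-0.070) and of its interaction in mice C, D and E (-0.076). Egln1 for iBET in Ova was -0.038 with library size only, -0.070 in mice A and B and -0.036 to 0.083 with each mouse left out. Ankrd37 for IC in DMSO was 0.071 with surrogate variables, 0.0041 with limma, 0.25 in mice C, D and E and -0.24 to 0.23 with each mouse left out. Ndrg1 for IC in iBET was -0.043 with library size only, -0.043 with surrogate variables, -0.19 in mice A and B and -0.0048 to 0.12 with each mouse left out. Ero1l for IC in iBET was 0.16 with surrogate variables, 0.086 in mice C, D and E and -0.065 to 0.035 with each mouse left out. None of these was called in the reported fit. Adm and Ankrd37 are limited by depth.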

Other observations

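Among the other HIF targets, Hmox1 and Ak4 had the largest rises with IC and are named here after their values were seen. Hmox1, the heme-degrading enzyme, was at 96.2 ± 23.4 CPM in DMSO Ova, 479 ± 48.3 in DMSO IC, 130.4 ± 10.6 in iBET Ova and 523 ± 82.9 in iBET IC (SD, n = 5). The log2 fold change with IC was 2.31 in DMSO and 2.00 in iBET, higher in 5 of 5 mice each (edgeR, adjusted p = 2.56e-09 and 2.05e-08). The difference between the 2 treatments was -0.31 (95% interval -0.71 to 0.09, adjusted p = 1.00). Ak4, a mitochondrial adenylate kinase, rose by 1.27 with IC in DMSO (adjusted p = 8.71e-05).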
